A study of Rattus norvegicus with 19 samples.

Results

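Livers of rats fed a high protein diet were compared with livers of rats fed a high fat diet, on 12 of the 19 arrays of the series. The arrays were chosen by their titles, 6 of high protein rats and 6 of high fat rats, and the arrays of the control diet were left out of the comparison. All animals were male Wistar rats, with no genetic change named in the labels, housed singly and fed their diet for 4 months from an age of 8 weeks. In the high protein diet, protein (for the most part casein) made up 45% of the energy, next to 45% carbohydrate and 10% fat. In the high fat diet, fat made up 60% of the energy, next to 20% protein and 20% carbohydrate. The diets therefore differed in all 3 macronutrients at once, and what belongs to more protein, less fat or more carbohydrate cannot be told apart within this comparison. The rats were killed early in the morning in the fed state. Of each liver 1000 ng of RNA was used for labelling, and each rat's RNA was hybridised in Cy5 against a Cy3 pool of equal parts of liver RNA, without dye swaps. Each value below is the log2 ratio of a rat to that pool, so that a difference of 1 is a 2-fold difference, and differences are given as high protein minus high fat with the standard error (SE) of the model.

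The liver turns surplus carbohydrate into fatty acids through glycolysis, citrate export and the acetyl-CoA carboxylase and fatty acid synthase steps, a route under the control of the transcription factors SREBP-1c and ChREBP, which respond to insulin and to sugar phosphates. Dietary fat lowers this route, and the fatty acids that it brings are ligands of PPAR alpha, the receptor that drives mitochondrial and peroxisomal fatty acid oxidation and the omega hydroxylases. Dietary protein brings amino nitrogen, which aminotransferases, deaminases and the urea cycle dispose of in the hepatocytes around the portal vein, while glutamine synthetase takes up remaining ammonia around the central vein.

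In all, 21110 features were tested, 10528 named genes and 10582 probes without a gene name. With limma and Benjamini-Hochberg adjustment over all features, 2063 passed an adjusted p of 0.05, which is 9.77% of the features: 1008 (4.77%) were higher and 1055 (5%) lower in the high protein livers. Without adjustment, 5089 features had a p under 0.05. Higher values made up 48.9% of the calls, but 59.9% when arrays were only centred on their median and 63.7% with slide as a term over all 19 arrays. Of the called features 53 were higher and 37 lower by more than 2-fold. The 6 and 6 livers did not overlap for 1106 features (5.24%), 609 (2.88%) higher and 497 (2.35%) lower, and the median difference over all features was -0.0036. Cy5 signals stood well above background for 55.3% to 63.6% of probes. Calls depended on signal: 1.53% of the dimmest of 4 equal classes of features were called, against 14.7% of the brightest. The first principal component, 32.1% of the variance, separated the diets, with the high protein livers between -21.5 and -12.8 and the high fat livers between 6.2 and 23.0. Slide 1 held high protein 1, high protein 4 and high fat 1, and each of the other 4 slides held only 1 of the 2 diets, so slide and diet cannot be told apart on 9 of the 12 arrays. Within slide 1, where these same arrays also entered the test, 2006 of the 2063 differences had the same direction. Over all 21110 features, called or not, 14644 had the same direction there. With slide as a block in these 12 arrays, where the contrast rests on slide 1 alone, 1 feature was called, an unnamed probe. With the 7 control arrays added to tie the slides together and slide as a term, 336 of the 2063 calls remained and 2048 kept their direction.

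All 12 measured hepatocyte markers were well above background in every liver. Of these 3 were called higher (Ttr, Serpina1 and Cps1) and 3 lower (Cyp2e1, Asgr1 and Apob). Of 3 bright probes of the albumin gene Alb, the brightest differed by -0.02 ± 0.07 (adjusted p = 0.928) and the others by 0.41 and 0.45. A second bright probe of Ttr gave -0.20, opposite to the one counted. Among the markers of other cells, 1 of 11 for Kupffer cells and macrophages was called higher, the lysozyme gene Lyz2 (0.77 ± 0.17, adjusted p = 0.0109), and 1 lower, the mannose receptor gene Mrc1 (-0.28, other probe -0.032). The per-array median of that list ran from -0.24 to 0.17 in high protein and from -0.40 to 0.16 in high fat livers. Of 19 stellate cell and matrix markers Reln (-0.35) and Pdgfra (-0.26) were called lower, and of 4 erythroid markers Slc4a1 (-0.43). None of 13 lymphocyte, 11 endothelial, 7 cholangiocyte, 3 pancreas, 2 neutrophil and 2 adipocyte markers passed; the lymphocyte medians lay between -0.89 and -0.68 in high protein and between -0.92 and -0.73 in high fat livers. Alb, Asgr1, Lyz2, Mrc1, Reln, Pdgfra and Slc4a1 were picked out after their values were seen. The part of such cells in the results below was not tested. In such bulk samples, fewer cells of a type and less RNA per cell cannot be told apart.

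Genes of fatty acid synthesis showed the largest shift: 15 of 19 measured members were higher in the high protein livers, 12 of them without overlap, and 0 were lower. Their median difference was 1.18. For comparison, 4.77% of all features were called higher and 2.88% were higher without overlap. The largest rise of any named gene was that of Scd, the stearoyl-CoA desaturase that makes oleate and palmitoleate, whose probe lies on chromosome 1 at 249459057 to 249459116 (rn4, minus strand). Scd lay between -0.75 and 0.94 in the high protein livers (median 0.07) and between -5.88 and -3.03 in the high fat livers (median -4.54). The high protein livers thus sat near the pool and the high fat livers far below it, without overlap, a 23.1-fold difference (4.53 ± 0.41, adjusted p = 2.08e-05). Fasn, the fatty acid synthase, ran from -0.44 to 1.83 (median 0.04) against -4.03 to -1.89 (median -3.49), again without overlap. Its difference was 3.47 ± 0.44 (adjusted p = 0.000297), and a second probe gave 3.11.

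Elovl6, which elongates palmitate to stearate, differed by 3.13 ± 0.51 (adjusted p = 0.00189), and a second probe by 1.65. The high protein livers spread from -1.97 to 1.49 (median 0.37) and the high fat livers from -3.67 to -2.10 (median -3.08), so that the lowest high protein liver, high protein 4, lay just above the highest high fat liver, high fat 1. The second desaturase gene Scd2 had the smallest p of the list: -0.40 to 0.68 (median 0.16) against -2.69 to -1.99 (median -2.49), a difference of 2.56 ± 0.17 (adjusted p = 6.24e-06). Its other probes gave 0.38 and, for a dim one, 0.28, and which transcripts each probe reads was not tested. Acaca, the cytosolic acetyl-CoA carboxylase, ran from -0.71 to 0.99 (median -0.002) against -2.04 to -1.04 (median -1.42), with a difference of 1.56 ± 0.26 (adjusted p = 0.00198, other probe 0.35). Acly, which splits exported citrate into acetyl-CoA, differed by 2.10 ± 0.43 (adjusted p = 0.00803) and Me1, the cytosolic malic enzyme that makes NADPH, by 1.77 ± 0.40 (adjusted p = 0.0139). For both, high protein 4 (-1.04 and -1.73) lay below high fat 1 (-0.64 and -1.0), the only overlap between the groups in Acly. Tkt, the transketolase of the pentose phosphate pathway, rose by 0.90 ± 0.12 (adjusted p = 0.000409) and the mitochondrial citrate carrier gene Slc25a1 by 0.69 ± 0.08 (adjusted p = 0.000164), each without overlap. Thrsp, a lipogenic protein gene induced by carbohydrate and thyroid hormone, rose by 1.56 ± 0.28 (adjusted p = 0.00335).

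The livers of one diet also differed among themselves. Among the 15 called members, high protein 1 was the highest high protein liver in 11 and high protein 4 the lowest in 10, and high fat 3 was the lowest high fat liver in 11. The median of the list was 0.72 in high protein 1 and -0.33 in high protein 4, which shared a slide, and -0.45 in high fat 1 and -1.15 in high fat 5. Leaving out any 1 rat kept 13 of the 15 calls in all 12 omissions, and 5 of 15 (Scd, Scd2, Fasn, Tkt and Thrsp) also passed over all 19 arrays with slide as a term. Under that model Elovl6 (2.41, adjusted p = 0.179), Acly (1.86, adjusted p = 0.155), Me1 (1.26, adjusted p = 0.34) and Acaca (1.51, adjusted p = 0.116) did not pass.

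**Figure D1:**
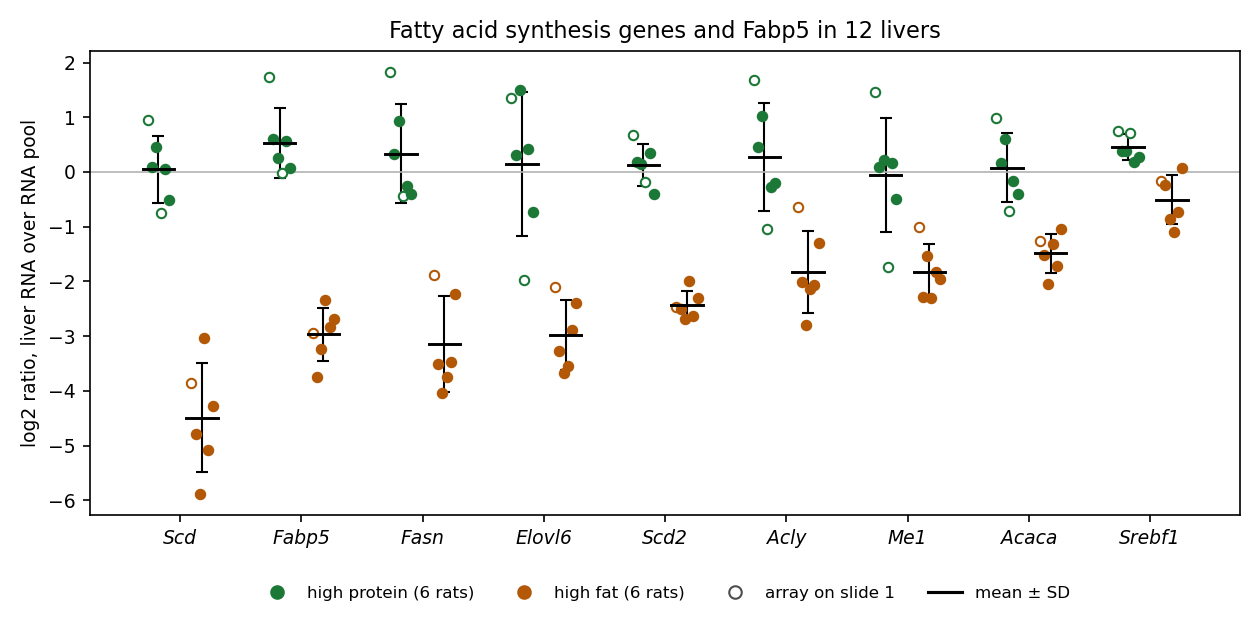
Log2 ratio of each liver to the RNA pool (vertical axis) for 8 genes of fatty acid synthesis or its control and for Fabp5; dots are rats, open dots are arrays of slide 1, and black lines give the mean and SD of the 6 rats of a diet. The high protein livers lie around the pool and the high fat livers below it, down to -5.88 for Scd, and the groups overlap only in Acly and Me1.

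Promoters are shown for genes that rose together in the high protein livers, to set the letters known as binding sites of their regulators beside the values. Of the 861 genes in the lists or named here 696 had a promoter in the RefSeq table (build GRCr8). In the 250 bases before the start, on both strands, 5 motifs were searched: CCAAT, the box bound by NF-Y, which acts with SREBP, found in 34% of all 33469 promoters; the E-box CACGTG (5.59%); a sterol regulatory element, ATCAC and CCAC with 1 base between (0.23%); a carbohydrate response element, CANGNG and CNCNTG with 5 bases between (0.472%); and AGGTCA repeated after 1 base, a direct repeat bound by PPAR alpha (0.0508%). Of the 15 fatty acid synthesis genes that rose, 11 had a promoter, and 7 of these held CCAAT and 0 any of the other motifs. The carbohydrate response element occurred in 1 of 9 promoters of the glycolysis and fructose genes that rose, that of Pklr, 168 to 152 bases before the start. CCAAT began 71 bases before the start in Acly, 97 and 54 in Scd2, and on the reverse strand (ATTGG) 121 in Thrsp. Among 8 promoters of fatty acid oxidation genes that fell, 0 held the direct repeat and 1 CCAAT. A match only describes the letters of this window. The 4 promoters printed here all hold a match, while not all promoters searched did. Capitals mark the motifs in Pklr (chr2:176841014-176841263, plus strand), Acly (chr10:85963632-85963881, minus strand), Scd2 (chr1:253118127-253118376, plus strand) and Thrsp (chr1:161138965-161139214, minus strand), each written in the direction of the gene.
Pklr: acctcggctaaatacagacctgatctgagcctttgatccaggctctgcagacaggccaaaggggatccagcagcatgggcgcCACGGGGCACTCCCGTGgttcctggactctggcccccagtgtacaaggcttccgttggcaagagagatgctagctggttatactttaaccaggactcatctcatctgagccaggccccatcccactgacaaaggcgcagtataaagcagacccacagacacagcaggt
Acly: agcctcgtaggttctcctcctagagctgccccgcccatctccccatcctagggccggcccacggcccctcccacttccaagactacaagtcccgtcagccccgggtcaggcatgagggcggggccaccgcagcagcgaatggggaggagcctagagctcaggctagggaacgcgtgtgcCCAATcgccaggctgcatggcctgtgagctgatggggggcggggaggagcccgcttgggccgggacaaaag
Scd2: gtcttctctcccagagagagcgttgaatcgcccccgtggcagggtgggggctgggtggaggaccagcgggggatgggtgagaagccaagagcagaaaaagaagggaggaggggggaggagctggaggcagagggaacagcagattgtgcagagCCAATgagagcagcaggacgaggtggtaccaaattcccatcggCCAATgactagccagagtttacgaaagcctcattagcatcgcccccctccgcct
Thrsp: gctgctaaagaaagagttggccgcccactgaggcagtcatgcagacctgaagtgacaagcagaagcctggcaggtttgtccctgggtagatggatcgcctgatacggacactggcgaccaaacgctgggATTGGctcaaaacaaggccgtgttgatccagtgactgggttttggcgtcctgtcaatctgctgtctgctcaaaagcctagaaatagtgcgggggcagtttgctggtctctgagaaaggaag

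Of 15 lipogenic regulators 2 were higher and 0 lower, a share of 13.3% beside 9.77% of all features. Srebf1, which encodes SREBP-1, ran from 0.18 to 0.76 in the high protein livers (median 0.39) and from -1.1 to 0.07 in the high fat livers (median -0.48), without overlap (0.95 ± 0.18, adjusted p = 0.00534). Mlxipl, which encodes ChREBP, was at -0.57 in high protein 4 and between 0.04 and 0.30 in the other 5, against -0.63 to -0.32 in high fat livers (0.55 ± 0.12, adjusted p = 0.0125). Insig1, the sterol-regulated anchor of SREBP, differed by 1.33 ± 0.41 without passing (adjusted p = 0.0546, other probes 1.28, 1.15 and 1.2), and by -0.16 within slide 1. Neither Srebf1 (adjusted p = 0.0585) nor Mlxipl (adjusted p = 0.399) passed over 19 arrays with slide as a term. Fabp5, a fatty acid binding protein known from skin and macrophages, had the second largest difference of the named genes, 3.50 ± 0.28 (adjusted p = 1.13e-05). Its values were -0.02 to 1.74 (median 0.41) against -3.75 to -2.33 (median -2.89), and it passed in each omission and with slide as a term (3.81, adjusted p = 0.000848). Among 22 genes of fatty acid uptake, binding and activation 2 were higher and 6 lower. That share, 36.4%, stands beside 9.77% of all features. The higher ones were Fabp5 and Dbi (0.88 ± 0.20), the acyl-CoA binding protein gene. The lower ones were Fabp7 (-1.55 ± 0.34, adjusted p = 0.0121), the brain-type binding protein gene, the bile acid and very long chain acyl-CoA ligase genes Slc27a5 (-0.61) and Slc27a2 (-0.40), and the medium-chain ligase genes Acsm3 (-1.38 ± 0.26, adjusted p = 0.00526), Acsm2 (-0.79) and Acsm5 (-0.39, other probe 0.030). Slc27a2, Acsm2 and Acsm5 lost their call in 8, 8 and 9 of 12 omissions.

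Among 20 genes of triglyceride assembly and lipid droplets 2 were higher and 2 lower, a share of 20% beside 9.77% of all features. Pnpla5, a patatin-like lipase of lipid droplets, was the largest, between -1.29 and 0.90 (median 0.31) against -2.12 to -1.88 (median -1.96), without overlap (2.05 ± 0.32, adjusted p = 0.00133). Gpam, the mitochondrial glycerol-3-phosphate acyltransferase that starts triglyceride synthesis, rose by 0.91 ± 0.20 (adjusted p = 0.00975). Cideb (-0.36 ± 0.08, adjusted p = 0.0146) and Cidea (-1.33 ± 0.39, adjusted p = 0.0467), which help lipid droplets and lipoproteins grow, were lower. The call of Cidea was lost in 9 of 12 omissions (adjusted p up to 0.0994). Dgat1 (0.18, adjusted p = 0.0798, other probe 0.39), the last step of triglyceride synthesis, and Mttp (-0.27, adjusted p = 0.131, other probe 0.14), which loads lipoproteins, did not pass.

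In glycolysis and fructose entry 11 of 20 members were higher, 10 of them without overlap, and 0 lower, with a median of 0.37. Of all features 4.77% were called higher and 2.88% were higher without overlap. Tkfc, which phosphorylates glyceraldehyde from fructose, lay between -0.25 and 0.28 (median -0.02) against -1.51 to -1.05 (median -1.18), a difference of 1.22 ± 0.10 (adjusted p = 1.15e-05). Pklr, the liver pyruvate kinase whose promoter is shown above, ran from -0.31 to 0.47 (median -0.04) against -1.70 to -0.90 (median -1.26), a difference of 1.25 ± 0.14 (adjusted p = 9.39e-05). In both genes the livers of the diets were apart. Khk, the fructokinase, rose by 0.60 ± 0.08 (adjusted p = 0.000568). Enzymes of glycolysis itself also rose: Eno1 by 0.57 ± 0.05 (adjusted p = 3.13e-05), Gapdh by 0.63 ± 0.07 (adjusted p = 0.000189), Pgk1 by 0.60, Gpi by 0.50 and Pgam1 by 0.30, all without overlap. Slc2a5, the fructose carrier gene, rose by more but varied widely (1.39 ± 0.30, adjusted p = 0.011, -0.74 to 0.69 against -2.13 to -0.39), and was picked out after its values were seen. All 11 had the same direction within slide 1, 10 were called in every omission and 4 of 11, Tkfc, Pklr, Eno1 and Gapdh, over 19 arrays with slide as a term.

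Many of the unnamed probes with the smallest p carry descriptions of enolase or of glyceraldehyde 3-phosphate dehydrogenase, a choice of features made after their values were seen. Of the 40 features with the smallest p 33 were unnamed, and 13 of these were described as similar to alpha enolase. All 14 unnamed probes with that description were higher in the high protein livers without overlap (0.32 to 0.89, median 0.81). Of 79 unnamed probes described as glyceraldehyde 3-phosphate dehydrogenase, 73 were higher and 0 lower (-0.02 to 0.78, median 0.63). These near-identical copies can bind each other's RNA, so which copy each probe measured is uncertain, and they add to the count of called features.

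In gluconeogenesis and the glycerol shuttle 3 of 12 were higher and 0 lower (median -0.035), a share of 25% beside 9.77% of all features. Mdh1, the cytosolic malate dehydrogenase, was -0.06 to 0.50 (median 0.33) against -0.65 to -0.40 (median -0.58), without overlap (0.82 ± 0.08, adjusted p = 5.28e-05). Gpd1, which makes glycerol 3-phosphate, rose by 0.55 ± 0.12 (adjusted p = 0.0122) and Fbp1, fructose bisphosphatase, by 0.43 ± 0.11 (adjusted p = 0.023, lost in 3 of 12 omissions). Pck1, the cytosolic phosphoenolpyruvate carboxykinase that is taken as the control point of gluconeogenesis, differed by -0.36 ± 0.19 (adjusted p = 0.286, other probe -0.12). G6pc1, the glucose 6-phosphatase, differed by 0.51 ± 0.30 (adjusted p = 0.328, other probe 0.73). Of 30 genes of pyruvate dehydrogenase and the citric acid cycle 4 were higher and 1 lower. Their share called, 16.7%, stands beside 9.77% of all features and 14.7% of the brightest class. Pdhb (0.85 ± 0.15, adjusted p = 0.00356) and Dlat (0.46 ± 0.09, adjusted p = 0.00764), subunits of the dehydrogenase, were higher together with Pdk1, a kinase that turns the complex off (0.84 ± 0.12, adjusted p = 0.00061), and the pyruvate carrier gene Mpc1 (0.28, lost in 6 of 12 omissions). Idh2, the mitochondrial NADP-linked isocitrate dehydrogenase, was lower (-0.57 ± 0.14, adjusted p = 0.0199, other probe -0.31).

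Of 58 oxidative phosphorylation genes 9 were higher and 1 lower, with a median of 0.12. Their share called, 17.2%, stands beside 9.77% of all features and 14.7% of the brightest class. The complex III genes Uqcrc1 (0.49 ± 0.07, adjusted p = 0.00059) and Cyc1 (0.33 ± 0.06, adjusted p = 0.00251), the ATP synthase gene Atp5f1a (0.36 ± 0.07, adjusted p = 0.00623) and the complex I gene Ndufv1 (0.26 ± 0.05, adjusted p = 0.00682) did not overlap between diets. None of these 10 calls was kept over 19 arrays with slide as a term.

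Of the mitochondrial fatty acid oxidation genes 10 of 20 were lower in the high protein livers, 5 of them without overlap, and 0 higher, with a median of -0.26. Over all features 5% were called lower and 2.35% were lower without overlap. Cpt1a, the gatekeeper that makes carnitine esters for entry into mitochondria, ran from -1.1 to 0.23 (median -0.66) in high protein livers and from 0.04 to 0.98 (median 0.45) in high fat livers. High protein 3 was the liver that reached into the high fat range, and the difference was -1.07 ± 0.20 (adjusted p = 0.00512). Decr1, the dienoyl-CoA reductase needed for polyunsaturated fatty acids, was -0.70 to -0.05 (median -0.32) against 0.35 to 0.64 (median 0.40), without overlap (-0.79 ± 0.10, adjusted p = 0.000268). Acadm (-0.48 ± 0.07, adjusted p = 0.00127), Acadl (-0.37 ± 0.08, adjusted p = 0.0135) and Acadvl (-0.21 ± 0.04, adjusted p = 0.0099, other probe -0.0024), the medium-, long- and very long-chain acyl-CoA dehydrogenases, and Hadha of the trifunctional protein (-0.28 ± 0.05, adjusted p = 0.00564) also did not overlap. Eci1, the enoyl-CoA isomerase, fell by 0.69 and Slc25a20, the acylcarnitine carrier gene, by 0.32, with overlap. All 10 had the same direction within slide 1, and 5 of the 10 passed over 19 arrays with slide as a term. In the ketone body list 3 of 7 were lower, a share of 42.9% beside 9.77% of all features. Among them were Acat1, an acetoacetyl-CoA thiolase (-0.33 ± 0.08, adjusted p = 0.021), and Bdh1, which makes hydroxybutyrate (-0.40 ± 0.10, adjusted p = 0.0231). The call of Bdh1 was lost in 1 of 12 omissions, without high fat 3, and Fgf21, a fasting hormone of the liver, differed by -0.10 (adjusted p = 0.754).

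Of 27 genes of peroxisomal oxidation and PPAR alpha targets 6 were lower and 3 higher, with a median of -0.15. The share called, 33.3%, stands beside 9.77% of all features. Ech1, a dienoyl-CoA isomerase, was -0.80 to -0.15 (median -0.44) against 0.40 to 0.88 (median 0.60), without overlap (-1.09 ± 0.11, adjusted p = 6.01e-05). Vnn1, a pantetheinase and marker of PPAR alpha activity, was -1.56 to -0.001 (median -1.05) against 0.24 to 1.00 (median 0.62), without overlap (-1.53 ± 0.22, adjusted p = 0.0008). Acox2, the branched-chain acyl-CoA oxidase (-0.68 ± 0.11, adjusted p = 0.00184), and Creb3l3, a liver transcription factor of lipid metabolism (-0.61 ± 0.10, adjusted p = 0.00254), were apart too. The fatty acid omega hydroxylase genes Cyp4a8 (-1.40 ± 0.35, adjusted p = 0.0241) and Cyp4a2 (-1.37 ± 0.36, adjusted p = 0.0299) varied more, from -2.26 to 0.32 and from -2.43 to 0.27 in the high protein livers. Their calls were lost in 2 and 5 of 12 omissions. Not every target was lower: Angptl4, an inhibitor of lipoprotein lipase, was higher (0.69 ± 0.18, adjusted p = 0.027, lost in 4 of 12 omissions), as were the thiolase gene Acaa1b (0.59, lost in 9 of 12 omissions) and the thioesterase gene Acot8 (0.26), the latter picked out after its values were seen.

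**Figure D2:**
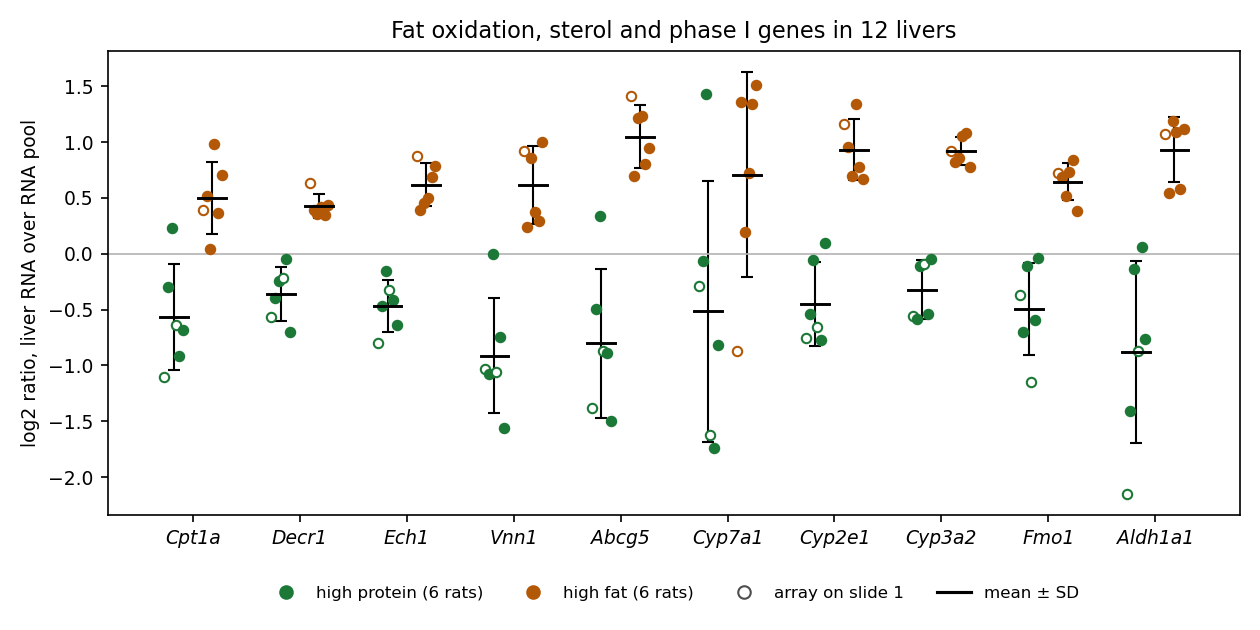
Log2 ratio of each liver to the RNA pool (vertical axis) for 10 genes of fat oxidation, sterol handling and phase I metabolism; dots are rats, open dots are arrays of slide 1, and black lines give the mean and SD of the 6 rats of a diet. The high fat livers lie above the high protein livers without overlap in 8 of the 10 genes; Cpt1a and Cyp7a1 overlap, and Cyp7a1 spans -1.74 to 1.43 in the high protein livers.

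In bile acid synthesis and sterol transport 6 of 24 members were lower and 0 higher, a share of 25% beside 9.77% of all features. The list median was -0.25. Abcg5, a subunit of the canalicular sterol exporter, was the largest fall of any named gene. It ran from -1.5 to 0.34 (median -0.88) against 0.69 to 1.41 (median 1.08), without overlap (-1.85 ± 0.25, adjusted p = 0.000577), and passed with slide as a term (-1.89, adjusted p = 0.0392). Cyp7b1, an oxysterol hydroxylase of the alternative bile acid route, was also lower (-0.92 ± 0.22, adjusted p = 0.0177). The phospholipid exporter gene Abcb4 (-0.40 ± 0.08, adjusted p = 0.00925) and the bile acid and anion uptake genes Slc10a1 (-0.31 ± 0.07, adjusted p = 0.0119) and Slco1b2 (-0.55 ± 0.14, adjusted p = 0.0284, lost in 3 of 12 omissions) fell as well, next to Slc27a5 above. Cyp7a1, which starts and limits the main route from cholesterol to bile acids, differed by -1.23 ± 0.52 and did not pass (adjusted p = 0.163). Its values were -1.74 to 1.43 (median -0.55) against -0.87 to 1.51 (median 1.03), a wide overlap with high protein 3 at 1.43 and high fat 1 at -0.87.

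Of 24 genes of cholesterol synthesis and uptake 2 were higher, Nsdhl (0.48 ± 0.11, adjusted p = 0.0176) and Mvd (0.95 ± 0.27, adjusted p = 0.0382), both enzymes of the route, and 0 were lower, a share of 8.33% against 9.77% of all features. The call of Mvd was lost in 8 of 12 omissions, and Nsdhl differed by -0.08 within slide 1. The livers of one diet spread widely here, with list medians from -0.33 to 0.50 in high protein and from -0.45 to 0.37 in high fat livers, beside a median difference of 0.14. High protein 1 was the highest high protein liver for 17 of the 24 genes and high protein 4 the lowest for 21, and high fat 1 was the highest high fat liver for 21. These 3 livers are the arrays of slide 1. Fdps (0.82, adjusted p = 0.0651) and Pmvk (0.83, adjusted p = 0.0564) did not pass. Of 19 genes of apolipoproteins and lipoprotein handling 4 were lower and 1 higher, a share of 26.3% beside 9.77% of all features. Lcat, which esterifies cholesterol in plasma lipoproteins, fell by 0.37 ± 0.05 (adjusted p = 0.000604) without overlap, and Scarb1, the HDL receptor gene, by 0.43 ± 0.10 (adjusted p = 0.0152, other probe -0.084). Apob, the structural protein of VLDL, differed by -0.27 ± 0.07 (adjusted p = 0.0197), with other probes at -0.18, -0.29, -0.32 and -0.40. Its call was lost when Cy5 alone was used (0.0072, adjusted p = 0.975). Apoa5, an activator of triglyceride clearance, differed by -0.43 ± 0.13 (adjusted p = 0.0486, lost in 9 of 12 omissions). The hepatic lipase gene Lipc rose by 0.23 ± 0.06 (adjusted p = 0.0189).

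The urea cycle list had 4 of 9 members higher and 0 lower, a share of 44.4% beside 9.77% of all features. Its median was 0.28. Asl, the argininosuccinate lyase, was 0.11 to 0.73 (median 0.49) against -0.61 to -0.03 (median -0.32), without overlap (0.80 ± 0.11, adjusted p = 0.000591). Ass1, the argininosuccinate synthase before it, was 0.21 to 0.76 (median 0.49) against -1.29 to 0.12 (median -0.41), also without overlap (1.03 ± 0.19, adjusted p = 0.00456). Cps1, which fixes ammonia as carbamoyl phosphate, was tight in the high protein livers (0.20 to 0.40) and wide in the high fat livers (-0.80 to 0.29), with a difference of 0.60 ± 0.14 (adjusted p = 0.0124). Gls2, the liver glutaminase that feeds ammonia to Cps1, rose by 0.65 ± 0.13 (adjusted p = 0.00783) without overlap. The remaining 5 did not pass: Nags (0.28, adjusted p = 0.071), Arg1 (0.23, adjusted p = 0.529), Slc25a15 (0.09, adjusted p = 0.523), Otc (0.07, adjusted p = 0.742) and Glud1 (-0.20, adjusted p = 0.322). High fat 6 was the lowest high fat liver for 8 of the 9 genes. The 4 calls held in every omission, and that of Asl also with slide as a term over 19 arrays.

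Among 17 aminotransferases and enzymes of glutamate, histidine, lysine and proline 7 were higher and 1 lower (median 0.20). The share called, 47.1%, stands beside 9.77% of all features. Got1, the cytosolic aspartate aminotransferase, was 0.40 to 1.02 (median 0.66) against -1.07 to 0.16 (median -0.60), without overlap (1.19 ± 0.17, adjusted p = 0.000793). Hal, the histidase, was 0.27 to 0.83 (median 0.50) against -0.57 to -0.16 (median -0.32), also without overlap (0.86 ± 0.10, adjusted p = 0.000121, a dim other probe 0.39). The alanine aminotransferase gene Gpt rose by 0.59 ± 0.14 (adjusted p = 0.0199), without overlap, with high fat 6 at -1.06. Aass of lysine breakdown (0.45), Aspg, an asparaginase (0.49), and Got2 (0.20) rose too, but lost their calls in 7, 8 and 9 of 12 omissions. The member that fell was Glul, the glutamine synthetase of the hepatocytes around the central vein, with -0.90 to -0.09 (median -0.44) against 0.08 to 0.53 (median 0.37), without overlap (-0.82 ± 0.13, adjusted p = 0.00174). The glutamate carrier gene Slc1a2, from the list of amino acid transporters, fell as well (-1.02 ± 0.15, adjusted p = 0.00115), without overlap. With slide as a term over 19 arrays neither passed.

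In serine, glycine and threonine breakdown 5 of 16 were higher and 0 lower (median 0.07), a share of 31.2% beside 9.77% of all features. Gldc, the decarboxylase of the glycine cleavage system, was 0.003 to 0.55 (median 0.42) against -0.85 to -0.36 (median -0.60), without overlap (1.00 ± 0.10, adjusted p = 5.09e-05, other probe 0.42), and its partner Amt rose by 0.24 ± 0.05 (adjusted p = 0.0149). Agxt, the glyoxylate and serine aminotransferase, rose by 0.53 ± 0.11 (adjusted p = 0.00839). Sds, which deaminates serine to pyruvate, varied most, between -0.47 and 1.01 (median 0.64) against -1.43 and 0.48 (median -1.03), and rose by 1.28 ± 0.31 (adjusted p = 0.0202) with overlap. Its relative Sdsl rose by 0.39 (lost in 7 of 12 omissions). In tryptophan breakdown 4 of 11 were higher and 0 lower (median 0.22), a share of 36.4% beside 9.77% of all features. Acmsd, which diverts the route from NAD synthesis to full oxidation, was 0.06 to 1.35 (median 0.58) against -1.39 to -0.07 (median -0.94), without overlap (1.56 ± 0.23, adjusted p = 0.00115). Nnmt, which methylates nicotinamide (0.89 ± 0.14, adjusted p = 0.0015), Kyat1 (0.37 ± 0.07, adjusted p = 0.00652) and Haao (0.25 ± 0.07, adjusted p = 0.0281) rose as well, whereas Tdo2, the first step, differed by -0.02 (adjusted p = 0.964).

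In phenylalanine and tyrosine breakdown 2 of 6 were higher and 0 lower, a share of 33.3% beside 9.77% of all features. Tat, the tyrosine aminotransferase, was 0.14 to 0.72 (median 0.34) against -1.05 to -0.21 (median -0.73), without overlap (1.02 ± 0.15, adjusted p = 0.000737), and Hgd, which opens the ring of homogentisate, rose by 0.49 ± 0.10 (adjusted p = 0.00826). Hpd, the step before it, did not pass (0.32, adjusted p = 0.133). Of 13 genes of methionine, cysteine and taurine 4 were higher and 0 lower (median 0.25), a share of 30.8% beside 9.77% of all features. They were Got1, Cbs of transsulfuration (0.46 ± 0.10, adjusted p = 0.0136), Suox (0.29) and Mat1a (0.42), the last 2 lost in 8 of 12 omissions each. Breakdown of branched-chain amino acids, which takes place largely outside the liver, had 1 of 19 members higher, a share of 5.26%. That gene was Bckdk, the kinase that turns the branched-chain dehydrogenase off (0.39 ± 0.08, adjusted p = 0.0106). Over 19 arrays with slide as a term, Tat, Hgd, Gldc, Sds, Sdsl, Acmsd, Nnmt, Kyat1, Got1 and Hal still passed, and Agxt, Amt, Haao, Cbs, Gpt and Bckdk did not.

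**Figure D3:**
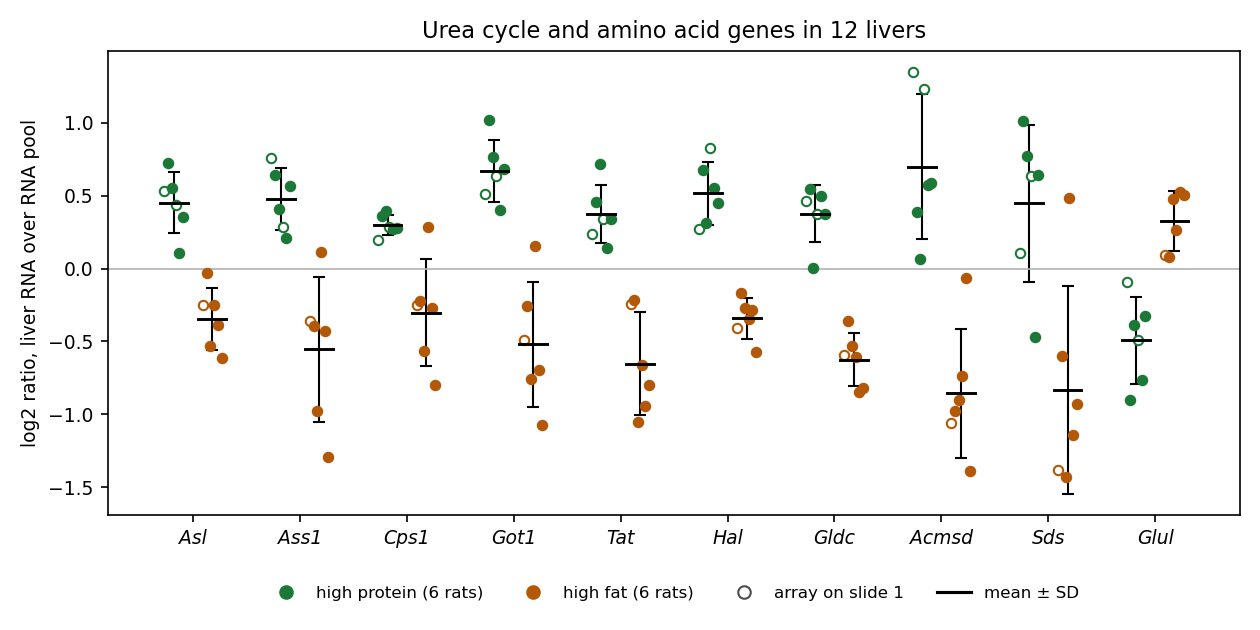
Log2 ratio of each liver to the RNA pool (vertical axis) for 10 genes of the urea cycle and of amino acid breakdown; dots are rats, open dots are arrays of slide 1, and black lines give the mean and SD of the 6 rats of a diet. The high protein livers lie above the high fat livers in 9 genes and below them in Glul; Cps1 and Sds overlap between the diets.

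Of 18 genes of serine synthesis and the integrated stress response 3 were higher and 0 lower. Their share called, 16.7%, stands beside 9.77% of all features and 14.7% of the brightest class. Nupr1, a stress-induced nuclear protein gene, rose by 0.90 ± 0.19 (adjusted p = 0.00821). Sesn2, a leucine sensor and inhibitor of mTORC1, rose by 0.38 ± 0.10 (adjusted p = 0.0251, lost without high protein 2). The call of Chac1 (0.58 ± 0.17, adjusted p = 0.043) was lost in 8 of 12 omissions. Phgdh, the first enzyme of serine synthesis, lay below the pool in all 12 livers and differed by 0.09 ± 0.10 (adjusted p = 0.668). Of 22 amino acid transporters 1 was higher, the cationic carrier gene Slc7a2 (0.36, lost in 9 of 12 omissions), and 2 lower, Slc1a2 and Slc6a13 (-0.35 ± 0.08, adjusted p = 0.0152). The share of transporters called was 13.6%, beside 9.77% of all features. In the insulin and growth hormone list 3 of 21 were higher and 1 lower, a share of 19% beside 9.77% of all features. The growth hormone receptor gene Ghr was 0.05 to 0.42 (median 0.18) against -0.59 to -0.19 (median -0.27), without overlap (0.51 ± 0.08, adjusted p = 0.00127). Its 2 dimmer probes gave -0.069 and 0.15, so the rise rests on 1 of 3 probes. Its signal transducer Stat5b rose by 0.48 ± 0.12 (adjusted p = 0.0208). Akt2, an insulin signalling kinase, rose by 0.22 (lost in 7 of 12 omissions) and Igfals, which carries IGF-1 in plasma, fell by 0.36 ± 0.08 (adjusted p = 0.0136). Irs2 (-0.61, adjusted p = 0.0673, dim other probes -0.037 and 0.0079) and Igfbp1 (-0.42, adjusted p = 0.272), both induced by fasting, did not pass. None of 15 clock genes passed, but their spread was wide: Dbp, a clock output gene, differed by -1.46 ± 0.63 (adjusted p = 0.174), with livers from -2.37 to 1.95.

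Of 12 genes of thyroid hormone carriage and response 3 were higher, Thrsp and Me1 among them, and 3 lower. That share, 50%, stands beside 9.77% of all features. Serpina7, the thyroxine-binding globulin gene, was -1.62 to -0.09 (median -0.94) against 0.16 to 1.69 (median 0.71), without overlap (-1.72 ± 0.26, adjusted p = 0.00127). The other carrier in this list, Ttr, had 2 bright probes of opposite sign. The brighter was 0.53 to 0.76 (median 0.65) against 0.10 to 0.47 (median 0.30), without overlap (0.33 ± 0.07, adjusted p = 0.00678), and the other differed by -0.20. Ncor1, a corepressor of nuclear receptors, fell by 0.47 ± 0.09 (adjusted p = 0.00629, other probes -0.13 and -0.24), with -0.03 within slide 1, and Dio1, which activates thyroxine, by 0.38 (other probe -0.057, lost in 7 of 12 omissions).

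Of 36 xenobiotic phase I genes 9 were lower and 0 higher in the high protein livers, with a median of -0.18. Among all features 9.77% were called, against 25% in this list. Cyp3a2, a male-specific steroid hydroxylase of the rat liver, was -0.59 to -0.04 (median -0.33) against 0.78 to 1.08 (median 0.89), without overlap (-1.24 ± 0.11, adjusted p = 1.64e-05), or -0.68 with Cy5 alone. Cyp2e1, the ethanol- and ketone-oxidising P450 of the hepatocytes around the central vein, was -0.77 to 0.10 (median -0.60) against 0.67 to 1.34 (median 0.86), without overlap (-1.38 ± 0.17, adjusted p = 0.000205). Fmo1, a flavin monooxygenase, was -1.15 to -0.04 (median -0.48) against 0.38 to 0.84 (median 0.70), without overlap (-1.14 ± 0.16, adjusted p = 0.000611). Nr1i3, which encodes the receptor CAR, fell by 1.09 ± 0.21 (adjusted p = 0.00559) with overlap, Cyp2j4 by 0.50 ± 0.09 (adjusted p = 0.0036) without, and Adh1c, an alcohol dehydrogenase, by 0.62 ± 0.14 (adjusted p = 0.016). The carboxylesterase gene Ces1d (-0.78) and the P450 gene Cyp2c6v1 (-0.64, lost in 5 of 12 omissions) were lower too. Of the 9 calls 7 held in every omission and 5 with slide as a term over 19 arrays. Of 12 aldehyde dehydrogenases only Aldh1a1, a retinaldehyde dehydrogenase, passed, a share of 8.33% beside 9.77% of all features. Aldh1a1 was -2.15 to 0.06 (median -0.82) against 0.55 to 1.19 (median 1.08), without overlap (-1.81 ± 0.30, adjusted p = 0.0023). The sex-biased list had 2 of 18 lower, Cyp3a2 and Sult1e1, a share of 11.1% near the 9.77% of all features, and Cyp2c11, the main male-specific P450, differed by 0.30 (adjusted p = 0.219).

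Conjugation enzymes split, with 3 of 34 higher and 4 lower, a share of 20.6% beside 9.77% of all features. Gstm4 (0.87 ± 0.14, adjusted p = 0.00148) and Gstt1 (0.45 ± 0.08, adjusted p = 0.00426), which encode glutathione transferases, were higher without overlap. The oestrogen sulfotransferase gene Sult1e1 (-0.75 ± 0.11, adjusted p = 0.000798), the N-acetyltransferase gene Nat8 (-1.13 ± 0.23, adjusted p = 0.00777) and Sult1c2 (-0.58 ± 0.14, adjusted p = 0.0222, lost without high fat 5) were lower without overlap, and Gsto1 (-0.28) with it. Gstm4 belongs to a family of near-identical genes, so its probe may read several of them. Of 23 Nrf2 targets and antioxidant genes 3 were higher and 0 lower, a share of 13% beside 9.77% of all features. They were Gss, the glutathione synthetase (0.34 ± 0.07, adjusted p = 0.00745), Keap1, the brake on Nrf2 (0.26 ± 0.06, adjusted p = 0.0124), and Sod2 (0.24, lost in 9 of 12 omissions). Nqo1, a typical Nrf2 target, differed by 0.31 (adjusted p = 0.172).

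Of 26 interferon response genes 3 were higher, Ifi27l2b (1.63 ± 0.17, adjusted p = 6.29e-05), Ifi27 (0.42 ± 0.10, adjusted p = 0.0139) and Ifi47 (0.19, lost in 9 of 12 omissions). A dim second probe of Ifi27l2b gave -0.02, so its rise rests on 1 probe. Oas1a (1.17 ± 0.37, adjusted p = 0.0653) and Rsad2 (-0.56, adjusted p = 0.0786, a dim other probe 0.0064), both induced by interferon, differed in opposite directions without passing. Of 21 acute phase proteins 3 were higher, Crp (0.54 ± 0.09, adjusted p = 0.0025, no overlap), Serpina1 (0.41 ± 0.09, adjusted p = 0.00965) and Saa4 (0.38, lost in 5 of 12 omissions), and 0 lower. Of 21 coagulation genes F5 (-0.33 ± 0.06, adjusted p = 0.00512, a dim other probe -0.0033) and F9 (-0.50 ± 0.10, adjusted p = 0.00618) were lower and the antithrombin gene Serpinc1 (0.22 ± 0.05, adjusted p = 0.019) higher. The shares called were 11.5% for interferon response genes and 14.3% for acute phase and for coagulation genes, close to the 9.77% of all features. Cytosolic ribosomal proteins (0 of 65 called, median 0.0051), proteasome subunits (2 of 33 higher) and chaperones (1 of 25 higher) had shares below the 9.77% of all features.

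**Figure D4:**
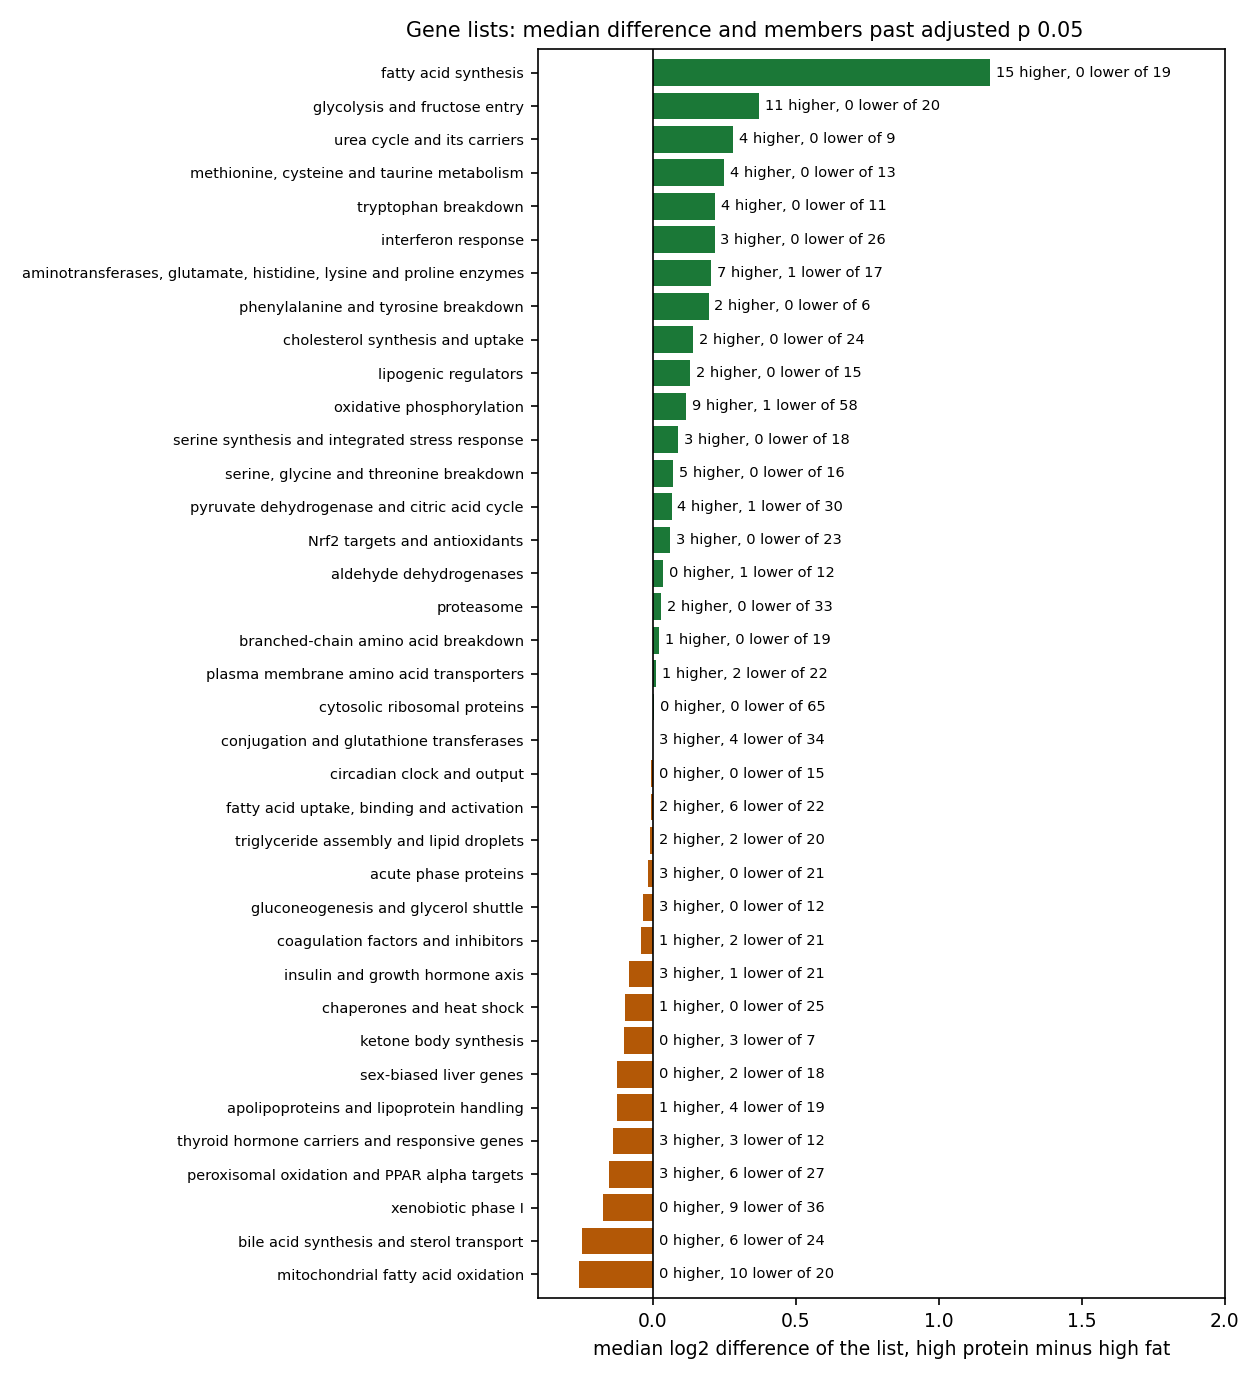
Median log2 difference, high protein minus high fat, of the measured members of 37 gene lists (horizontal axis), with the members past an adjusted p of 0.05 in each direction beside each bar. Genes of fatty acid synthesis stand at 1.18 and mitochondrial fatty acid oxidation at -0.26, while cytosolic ribosomal proteins lie at 0.0051.

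Outside the lists, the named genes of largest rise were Slc13a5, the citrate carrier of the hepatocyte membrane, and Cavin3, a caveola protein gene. Slc13a5 was -0.10 to 1.1 (median 0.55) against -1.55 to -0.54 (median -1.11), without overlap (1.62 ± 0.22, adjusted p = 0.000458). Cavin3 was -0.77 to 0.80 (median 0.14) against -1.91 to -0.86 (median -1.42), a difference of 1.5 ± 0.23 (adjusted p = 0.00131) that was 0.52 within slide 1. The largest falls there were those of Akr1c1, an aldo-keto reductase gene (-1.62 ± 0.31, adjusted p = 0.00509), Ctdsp1, a nuclear phosphatase gene (-1.43 ± 0.28, adjusted p = 0.0055, other probe -0.13), Slc13a3, a dicarboxylate carrier gene (-1.32 ± 0.19, adjusted p = 0.000829), and Pla1a, a phosphatidylserine phospholipase gene (-1.20 ± 0.15, adjusted p = 0.000227), all without overlap. The citrate carrier Slc13a5 and the dicarboxylate carrier Slc13a3, of one carrier family, thus had opposite signs. Phkg1, a subunit gene of phosphorylase kinase, was not well above background in any high protein liver and was lower there by at least 1.62-fold (adjusted p = 0.000298), the bound being the lowest signal among probes above background. It was picked out after its values were seen.

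Slide 1 was the only slide with both diets. Its differences were set beside those over all arrays for 157 genes, those that passed among the 311 chosen by the naming rule given below. These are a part of the named genes that passed, 608 higher and 477 lower. All but Nsdhl (0.48 over all arrays, -0.08 on slide 1) kept their direction, though these 3 arrays are among the 12 and are not independent of the test. Scd (3.96), Fabp5 (3.80) and Scd2 (2.72) were about as large on slide 1 as over all arrays, Elovl6 (1.79), Acly (0.96) and Cavin3 (0.52) were smaller, and Acmsd (2.36), Fabp7 (-2.78) and Abcg5 (-2.54) were larger. With 2 high protein livers and 1 high fat liver these values have no error.

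**Figure D5:**
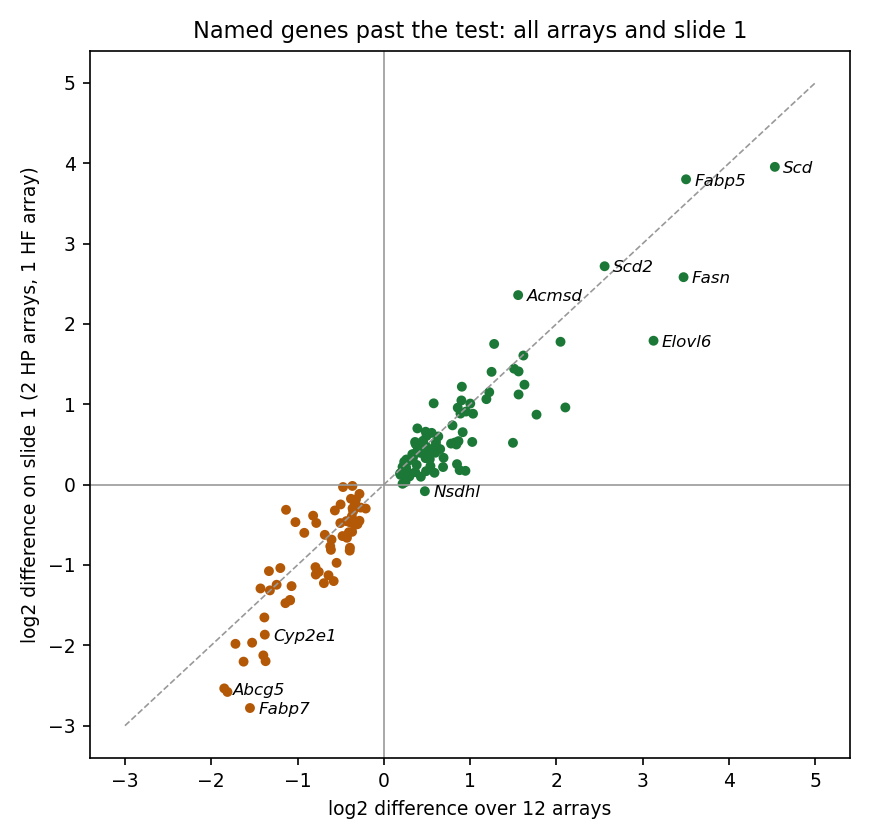
Log2 difference, high protein minus high fat, over all 12 arrays (horizontal axis) and on slide 1 alone (vertical axis, high protein 1 and 4 minus high fat 1). Points are the 157 genes past the test among those chosen by the naming rule, and the dashed line marks equal values. Points lie along the line in both directions, with 156 of 157 in the same direction and Nsdhl just across 0.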

How the data were processed

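Deposited scanner files of 2-colour Agilent arrays hold spot intensities, written by Agilent Feature Extraction 10.5.1.1 per the file headers; the deposited value table holds log2 values of the same arrays and served as an alternative. Raw Cy5 and Cy3 signals were background-corrected (normexp, offset 50; 26 spots on 3 arrays whose background exceeded the signal by over 50 were dropped), loess-normalised within arrays and fitted with limma 3.58.1 in R 4.3.3 to the 12 arrays, with Benjamini-Hochberg adjustment over 21110 features at 0.05. A feature is the brightest kept probe of a gene, or an unnamed probe, well above background in Cy5 on at least 6 of 12 arrays. Gene names came from an accession for 11150 of 41012 probes, from a current symbol for 5116, from an older symbol for 3422 and from the file alone for 156, and 21168 stayed unnamed. In 121 features a dropped spot or outlier left a missing value.

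Genes named are the 15 largest rises and 15 largest falls among called named genes, up to 8 members of each list with the smallest p (any member in lists of up to 12), and Asl, Cpt1a, Cyp7a1, Fasn, Igfbp1, Pck1, Phgdh, Scd, Sds and Tat. The comparison and the 37 gene and 10 marker lists were chosen with earlier results of these data known. The procedure was tested on simulated data with independent noise and no slide effect, so this test does not bear on slide. Alternatives covered background, normalisation, filter, probe choice, slide, replicate number, all 19 arrays and the omission of each rat. The number of arrays limits the precision. Some members of the lists are counted but not reported here by name.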

Additional observations from a re-analysis of the deposited data

Results flagged for a closer look

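Of 612 groups of 6 livers checked, one per gene and diet, 37 held a liver far from the other 5 relative to the range of the group, and chance gives about 1 in 20 groups. Values are log2 ratios to the pool, each with that of the nearest liver of the same diet. High protein 1 stood apart in Apoa5 (-0.698, nearest -0.056), Bdh1 (-0.756, nearest -0.388), Fabp5 (1.74, nearest 0.596) and Gpam (1.11, nearest 0.261). The liver of high protein 1 lay outside in Mvd (1.33, nearest 0.448), Pck1 (-1.33, nearest -0.458), Prdx3 (-0.155, nearest 0.143) and Slc16a6 (0.243, nearest -0.28). The liver of high protein 3 lay outside in Bmal1 (-1.61, nearest -0.0169), Gldc (0.00337, nearest 0.372), Scarb1 (0.0878, nearest -0.168) and Usp2 (1.43, nearest -0.292). In high protein 4 this held for Aspg (-0.308, nearest -0.0272), Chac1 (1.08, nearest 0.295), Cp (-0.912, nearest -0.314) and Mlxipl (-0.565, nearest 0.0388). High protein 4 stood apart in Pdhb (-0.516, nearest 0.219), Slc25a1 (-0.18, nearest 0.0368) and Slco1b2 (-1.11, nearest -0.434). High protein 5 stood apart in Acox2 (-0.958, nearest -0.516). The liver of high fat 1 lay outside in Decr1 (0.636, nearest 0.435). In high fat 2 this held for Fgf21 (-0.672, nearest -0.215) and Pla1a (-0.0902, nearest 0.472). High fat 3 stood apart in Amt (-0.241, nearest -0.119) and Cyp2c12 (0.8, nearest -0.0787). The liver of high fat 4 lay outside in Mcee (0.82, nearest 0.508), Nampt (1.23, nearest 0.0645), Sesn2 (-0.714, nearest -0.343) and Slc25a15 (0.289, nearest -0.0437). In high fat 4 this held for Suclg2 (0.157, nearest -0.0308) and Tdo2 (0.934, nearest 0.168). In high fat 6 this held for Atp5f1b (-0.342, nearest -0.0671), F10 (-0.2, nearest -0.325), Glud1 (-0.33, nearest 0.191) and Gpt (-1.06, nearest -0.254). High fat 6 stood apart in Hpx (0.339, nearest -0.00297) and Pck2 (0.531, nearest 0.0294).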

How the results depend on the processing

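Between 1488 and 2176 features were called when 1 rat was left out (739 to 1071 higher, 749 to 1105 lower), the fewest without high protein 2 and the most without high fat 1. With slide as a fixed block in the 12 arrays 1 feature was called, 1 higher and 0 lower, because only slide 1 holds both diets. Over all 19 arrays with slide as a block 347 were called, 221 higher and 126 lower. The replicate numbers did not pair the rats: residual correlations of like-numbered rats lay between -0.22 and 0.093 (mean -0.068 over 6 pairs, 0.014 over 30 unlike pairs). With the replicate block 1319 features were called, 642 of them lower. The remaining settings gave 1516 (Cy5 alone) to 2521 (array quality weights) calls.

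Reversed signs occurred for Apob with Cy5 alone (0.0072, adjusted p = 0.975), for Nsdhl with slide as a fixed block and within slide 1 (-0.0816, adjusted p = 0.925) and for Sod2 over all 19 arrays with slide as a block (-0.105, adjusted p = 0.779); the cause was not tested. Of 9326 values of named genes under an alternative, 8322 were counted as unchanged, 749 lost their call and 126 gained one. In 4 values the sign changed for a gene with a call. Sign changes of genes with no call in either fit were not counted separately. For slide 1 alone, unchanged meant a difference within the SD of the livers of a diet, and 125 values moved by more.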
